A study of Mus musculus with 44 samples.

Results

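Transcripts of 9 genes of water transport and its hormonal control were followed in mouse kidney: the aquaporins Aqp1, Aqp2, Aqp3, Aqp4, Aqp6, Aqp7 and Aqp11, and the vasopressin receptors Avpr2 and Avpr1a. They were chosen by name, and their transcripts were summed per gene in the table of kidney RNA, where these 9 genes stand among 24733 genes with any value and 12874 with a mean of at least 1 TPM. All 9 reached that mean. TPM is an estimated transcript level already divided by transcript length and scaled to the same total in every library.

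The 24 polyadenylated RNA libraries came from kidneys of 129SV mice aged 8 to 12 weeks on night-restricted feeding. The mice were wild type (WT) or carried a knockout (KO) of Arntl, which encodes the circadian clock factor BMAL1. Kidneys were collected at 6 zeitgeber times, ZT0, ZT4, ZT8, ZT12, ZT16 and ZT20, which by convention count hours from lights on, and each of the 12 groups had 2 libraries, A and B. Feeding time, strain and age were shared by both genotypes. The labels do not give the cells in which Arntl was deleted, the sex of the mice, or whether A and B were separate animals, so p-values measure the spread between these libraries, which may be technical. Sequencing depth is unknown, because TPM keeps none.

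Aquaporins are channels through which water, and for some members glycerol, crosses cell membranes. In the kidney, AQP1 carries much of the water reabsorbed in the proximal tubule and thin descending limb, and vasopressin sets the water permeability of the collecting duct. Vasopressin binds the V2 receptor, encoded by Avpr2, on principal cells; cyclic AMP and protein kinase A then drive AQP2 into the apical membrane and raise Aqp2 transcription, while AQP3 and AQP4 let the water leave on the basolateral side. The V1a receptor, encoded by Avpr1a, signals through calcium and is found on vessels and on collecting duct cells.

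Positions are from GENCODE M21 on GRCm38, where all 9 genes are protein-coding. Aqp2 (chr15:99579055-99584547, plus strand) and Aqp6 (chr15:99601400-99605477, plus strand) are neighbours with Aqp5 between them, and the ends of Aqp2 and Aqp6 that face each other are 16.9 kb apart. Aqp7 (chr4:41033074-41048139) and Aqp3 (chr4:41092722-41098183), both on the minus strand, are 44.6 kb apart. Aqp1 is at chr6:55336432-55348555 (plus), Aqp11 at chr7:97724006-97738289 (minus), Avpr1a at chr10:122448499-122453452 (plus) and Avpr2 at chrX:73892102-73895502 (plus).

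Because BMAL1 binds E-boxes and vasopressin acts through cyclic AMP, the 250 bases before the RefSeq start of each gene (GRCm38.p6) were searched on both strands for the E-box CACGTG, the D-box TTANGTAA, the cyclic AMP response element half-site TGACG and the ROR element core AGGTCA. RefSeq gave 9 such windows for 8 of the 9 genes, Aqp7 having 2. Windows are shown for both receptors, whose transcripts differed most between genotypes, and for the neighbours Aqp2 and Aqp6, which hold an E-box. Each runs 5′ to 3′ on the strand of its gene, the last base lies next to the start, and capitals mark the matches.
Avpr1a, chr10:122448249-122448498, plus strand: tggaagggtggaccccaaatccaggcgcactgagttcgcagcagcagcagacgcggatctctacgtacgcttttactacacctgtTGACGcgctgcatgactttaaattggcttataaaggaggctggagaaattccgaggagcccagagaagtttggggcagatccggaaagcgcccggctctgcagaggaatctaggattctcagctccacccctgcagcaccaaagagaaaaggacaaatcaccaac
Avpr2, chrX:73891852-73892101, plus strand: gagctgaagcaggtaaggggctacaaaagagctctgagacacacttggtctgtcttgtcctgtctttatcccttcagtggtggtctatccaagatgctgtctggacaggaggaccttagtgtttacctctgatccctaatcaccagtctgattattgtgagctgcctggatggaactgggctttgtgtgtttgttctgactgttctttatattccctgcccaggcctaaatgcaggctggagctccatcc
Aqp2, chr15:99578806-99579055, plus strand: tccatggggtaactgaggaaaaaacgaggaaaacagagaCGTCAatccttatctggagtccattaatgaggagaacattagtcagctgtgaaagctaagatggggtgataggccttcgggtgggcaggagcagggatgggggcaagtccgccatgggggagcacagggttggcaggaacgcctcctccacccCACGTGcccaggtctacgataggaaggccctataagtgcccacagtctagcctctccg
Aqp6, chr15:99600950-99601199, plus strand: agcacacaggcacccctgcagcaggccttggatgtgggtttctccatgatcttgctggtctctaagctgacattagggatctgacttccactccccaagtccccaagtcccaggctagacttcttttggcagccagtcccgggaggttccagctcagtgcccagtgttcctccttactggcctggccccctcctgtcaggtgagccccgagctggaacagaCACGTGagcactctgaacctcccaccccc
The Avpr1a window held 1 half-site, beginning 165 bases before the start, and no E-box, and the Avpr2 window held none of the 4 motifs. The Aqp2 window held an E-box 58 bases and a half-site, read on the other strand, 211 bases before the start, and the Aqp6 window an E-box 29 bases before it. Of 32851 windows of the same length in the table, 6.02% held CACGTG, 17.8% TGACG, 14% AGGTCA and 2.06% TTANGTAA on either strand. The ROR core was found in Aqp7 and Aqp11 windows, the D-box in none of the 9, and none of the 4 motifs in Aqp1 or Aqp3. The motifs do not overlap one another in these windows. A match is a run of letters, and its absence says only that these letters are not in the window.

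Before the results, 2 libraries stood apart. The first was labelled KO ZT4 A, with the clock genes Cry1 at 1.03 TPM (11.5 to 17.8 in the other 11 KO libraries) and Nr1d1 at 23.8 TPM (1.24 to 3.46). In WT libraries A and B of ZT4, Cry1 stood at 1.203 and 0.8447 TPM and Nr1d1 at 22.03 and 32.95 TPM. For both genes the library labelled KO ZT4 A thus lay between the WT libraries of its time. Whether its label is right was not tested. In the second, labelled KO ZT12 A, 4 Y-linked genes (Ddx3y, Eif2s3y, Uty and Kdm5d) summed to 3.31 TPM, against 48.0 to 57.8 in WT and 53.4 to 69.1 in the other 11 KO libraries. Arntl itself ranged from 0.295 to 12.9 TPM in WT and was still detected in KO, at 4.19 to 6.28 TPM. Sex-dependent kidney genes also moved with the genotype: 5 male-high genes (Kap, Slc7a13, Cyp7b1, Slco1a1 and Acsm3) summed to 32296 to 42545 TPM in WT and 15103 to 31723 TPM in the 10 remaining KO libraries, and 3 female-high genes (Prlr, Slc22a29 and Cyp4a14) to 4.25 to 43.9 and 119 to 757 TPM. The male-high and female-high sums were 37390 and 23.2 TPM in the library labelled KO ZT4 A, both inside the WT range, and 10487 and 583 TPM in that labelled KO ZT12 A. These lists were added after the data were seen, and their part in the genotype differences below was not tested. All libraries were kept under their labels, and results that rest on either library are given with and without it.

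In WT kidney the order of levels was Aqp1, Aqp2, Aqp3, Aqp11, Aqp6, Aqp7, Avpr2, Aqp4 and Avpr1a, from 269 TPM ± 26.5 (SD, n = 12) down to 3.24 TPM ± 1.54 (SD, n = 12). TPM is per length, so levels can be compared between genes, but only over the transcripts in the file. These were 1 of 11 annotated for Aqp4, 1 of 5 for Aqp11 and 1 of 2 for Aqp6. The ranges of the 12 libraries did not overlap between Aqp1, Aqp2, Aqp3 and Aqp11 in turn, nor between Aqp6 and Aqp7. Aqp11 and Aqp6 overlapped, as did each neighbouring pair from Aqp7 down to Avpr1a. In KO the order was the same down to Aqp6, followed by Avpr2, Aqp7, Avpr1a and Aqp4, and the only neighbours whose ranges stayed apart were Aqp2 with Aqp3 and Aqp3 with Aqp11.

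The vasopressin receptors gave the largest differences between genotypes among the 9 genes. Avpr1a averaged 3.24 TPM ± 1.54 (SD, n = 12) in WT and 8.74 TPM ± 1.92 (SD, n = 12) in KO, a ratio of 2.70, and Avpr2 averaged 9.97 TPM ± 2.79 (SD, n = 12) in WT and 19.0 TPM ± 3.93 (SD, n = 12) in KO, a ratio of 1.90. Both transcripts also followed the time of day in WT, low around ZT8 to ZT12 and high around ZT20 to ZT0. In bulk kidney, more cells of a type and more RNA per cell cannot be told apart.

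Avpr1a in WT libraries A and B stood at 5.25 and 5.02 TPM at ZT0, 4.56 and 3.69 at ZT4, 1.57 and 2.12 at ZT8, 1.23 and 1.20 at ZT12, 2.38 and 2.68 at ZT16, and 4.60 and 4.57 at ZT20. The libraries of a time lay close together, and the ZT0 mean was 4.21 times the ZT12 mean. In KO the values were 9.95 and 9.46 TPM at ZT0, 4.57 and 9.30 at ZT4, 6.71 and 8.94 at ZT8, 12.1 and 10.8 at ZT12, 8.24 and 8.66 at ZT16, and 8.53 and 7.68 at ZT20. All 12 KO libraries lay above the WT libraries of their own time (at ZT4 by as little as 4.57 over 4.56 TPM), and 11 of 12 lay above every WT library, the exception being the library labelled KO ZT4 A. Without that library the KO values started at 6.71 TPM and did not overlap the WT values, which ended at 5.25. Here and for the other members, the share of all genes that separated in this way was not counted. Nor was the share with as many KO libraries above or below every WT library. Of genes named below, Adcy6, Prkar1a, Myo5b and Vamp2 were among those that also separated without that library, and Ptger1 and Rab11a among those that did not.

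The receptor Avpr2 in WT stood at 12.8 and 13.1 TPM at ZT0, 9.35 and 8.82 at ZT4, 5.85 and 6.87 at ZT8, 6.24 and 8.39 at ZT12, 10.6 and 12.1 at ZT16, and 13.9 and 11.6 at ZT20. The lowest values were those of ZT8 and ZT12. In KO it stood at 25.5 and 24.5 TPM at ZT0, 10.9 and 18.2 at ZT4, 19.3 and 14.4 at ZT8, 20.6 and 19.2 at ZT12, 20.01 and 17.3 at ZT16, and 20.4 and 17.5 at ZT20. Again all KO libraries were above the WT libraries of their own time. Without the library labelled KO ZT4 A the groups did not overlap (14.4 to 25.5 TPM in KO, 5.85 to 13.9 in WT). Among genes named below, Ehf, Gata2 and Tfap2b also separated without that library, and P2ry2 and Casr did not.

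**Figure D1:**
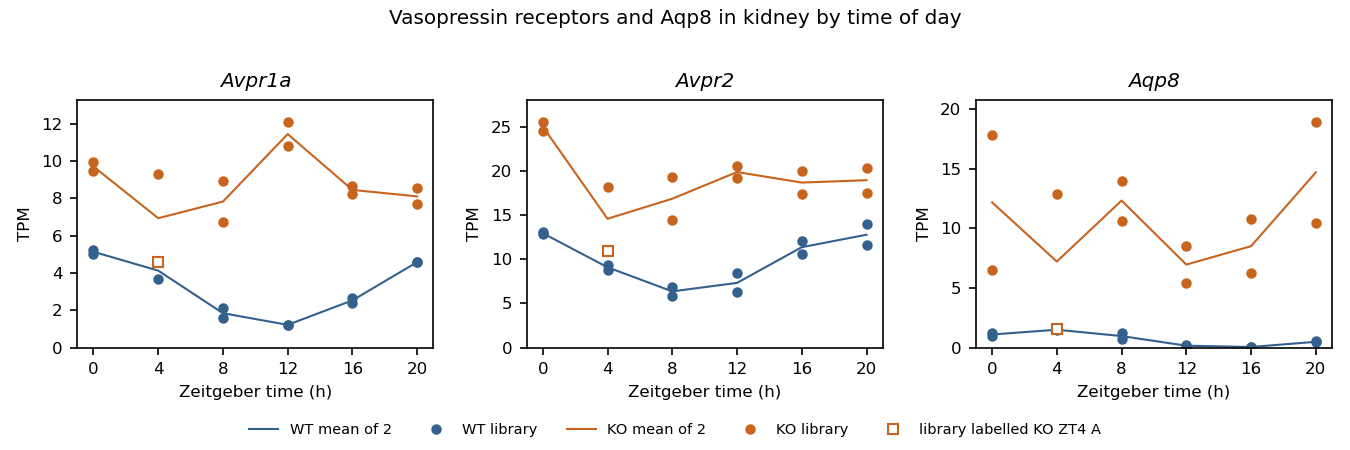
TPM of Avpr1a, Avpr2 and the further aquaporin Aqp8 (vertical axes, each from 0) against zeitgeber time in hours; points are libraries, lines join the means of 2 libraries, blue is WT, orange KO, and the open square is the library labelled KO ZT4 A. Avpr1a falls to 1.20 TPM in WT at ZT12, where the KO libraries stand at 10.8 and 12.1 TPM.

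The first comparison asked which of the 9 transcripts differed in level between KO and WT once time was accounted for. By limma's moderated test on log2(TPM + 0.1), with Benjamini-Hochberg adjustment over all 12874 genes, 6 of 9 passed an adjusted p of 0.05, 5 higher and 1 lower in KO. Of all genes tested, 60.9% passed, 50.9% higher and 10% lower, so the count for the 9 genes was near that of the table as a whole. The median difference was 0.18 log2 units over the 9 genes and 0.15 over all genes. Scaled by median-of-ratios factors instead, the median over all genes was 0.0017, 5 of the 9 passed (4 higher, 1 lower) and 44.3% of all genes did, 2844 higher and 2856 lower. That scaling lowered differences between KO and WT by about the 0.15 by which all genes were shifted, and they are read below relative to it.

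Avpr1a was 1.54 log2 units higher in KO (SE 0.217, adjusted p = 1.18e-05, limma), and Avpr2 0.95 higher (SE 0.107, adjusted p = 1.03e-06), each higher at 6 of 6 times. With median-of-ratios scaling the differences were 1.39 and 0.80, and without the libraries labelled KO ZT4 A and KO ZT12 A they were 1.55 and 0.97, all past the threshold. Among the channels, Aqp2 was 0.61 higher (SE 0.141, adjusted p = 0.00117), Aqp3 0.36 higher (SE 0.0842, adjusted p = 0.00105) and Aqp1 0.18 higher (SE 0.0482, adjusted p = 0.00346). After median-of-ratios scaling Aqp2 was 0.46 higher (adjusted p = 0.0095) and Aqp3 0.22 higher (adjusted p = 0.0379, limma), both still past the threshold, while Aqp1 at 0.03 was not. Aqp11 was 0.20 lower (log2 difference -0.20, SE 0.0423, adjusted p = 0.000561). Aqp4, Aqp6 and Aqp7 did not pass, with differences of 0.18 (SE 0.19), -0.01 (SE 0.114) and 0.06 (SE 0.0826) and adjusted p of 0.43, 0.94 and 0.561 in limma, and with differences of 0.03, -0.16 and -0.09 after median-of-ratios scaling.

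**Figure D2:**
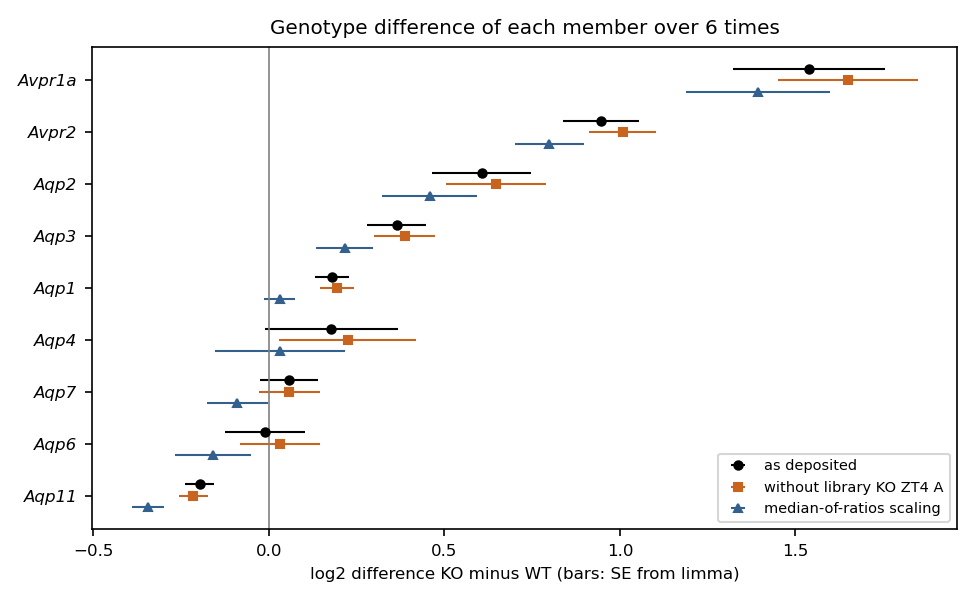
Log2 difference KO minus WT (horizontal axis) of the 9 transcripts over the 6 times, with bars of 1 SE from limma, for the values as deposited (circles), without the library labelled KO ZT4 A (squares) and after median-of-ratios scaling (triangles). Avpr1a and Avpr2 stand well above 0 in each, while Aqp1 moves from 0.18 to 0.03 with the scaling.

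Aqp2 encodes the water channel that vasopressin moves to the apical membrane of principal cells. In WT it ranged from 79.5 to 169 TPM with a median of 131, at 128 and 155 TPM at ZT0, 106 and 79.5 at ZT4, 82.9 and 95.4 at ZT8, 99.2 and 169 at ZT12, 152 and 140 at ZT16, and 135 and 148 at ZT20. In KO it ranged from 112 to 329 TPM with a median of 179, at 272 and 268 TPM at ZT0, 112 and 187 at ZT4, 166 and 114 at ZT8, 215 and 134 at ZT12, 329 and 133 at ZT16, and 236 and 171 at ZT20. The genotypes overlapped at ZT12 and ZT16, the 2 KO libraries of ZT16 differed by more than the whole WT range, and 7 of 12 KO libraries lay above every WT library. At ZT12 the difference was 0.39 log2 units with both KO libraries and 0.05 without the library labelled KO ZT12 A, neither past the threshold (adjusted p of 0.438 and 0.956, limma).

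Aqp3 and Aqp4 encode the basolateral channels of principal cells. Aqp3 ranged from 45.4 to 71.9 TPM in WT (median 58.4) and from 55.4 to 98.0 TPM in KO (median 74.8), and 7 of 12 KO libraries lay above every WT library. Its sum held a retained-intron transcript, which made up 18.8% to 33.7% of Aqp3 per library, in WT 15.7 TPM ± 3.30 (SD, n = 12) and in KO 21.1 TPM ± 5.50 (SD, n = 12). Summed markers of the urothelium, another tissue that makes AQP3, reached 108 TPM in the library KO ZT8 A and 26.1 TPM or less in the other 23, while Aqp3 there was at 74.0 TPM, within the range of the other KO libraries.

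Aqp4, a gene of chromosome 18, was low, at 3.68 to 9.50 TPM in WT and 2.91 to 10.9 TPM in KO. In WT its values separated by library letter: the 6 A libraries lay at 3.68, 5.14, 3.75, 5.36, 3.98 and 4.02 TPM from ZT0 to ZT20 and the 6 B libraries at 5.82, 7.11, 8.75, 7.59, 9.50 and 7.10. The letters did not overlap (A 4.32 TPM ± 0.734, B 7.64 TPM ± 1.31, SD, n = 6 each), which was so for 84 of 12874 genes, or 0.652%. In KO the letters overlapped for Aqp4, at 4.62 to 9.37 TPM for A and 2.91 to 10.9 TPM for B, and 28 of 12874 genes, or 0.217%, had no overlap. No source used here says what the letters stand for. Of 11 annotated Aqp4 transcripts 1 was in the file.

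Aqp6 encodes an anion-conducting aquaporin of intercalated cells, the acid-base cells of the collecting duct. It ranged from 15.8 to 33.8 TPM in WT and from 16.3 to 24.3 TPM in KO, with medians of 20.4 and 21.1. The highest values were 2 WT B libraries, at 32.3 TPM at ZT4 and 33.8 TPM at ZT20, each well above its A library, at 15.8 and 20.6 TPM.

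The other 3 members are expressed along the proximal tubule: Aqp1, the aquaglyceroporin Aqp7, and Aqp11, a channel of intracellular membranes. Aqp1 ranged from 223 to 304 TPM in WT (median 270) and from 251 to 347 TPM in KO (median 311), and 7 of 12 KO libraries lay above every WT library. Its difference of 0.18 log2 units was close to the median of all genes, and under median-of-ratios scaling it was 0.03 with an adjusted p of 0.6 (limma). Aqp7 ranged from 8.35 to 13.1 TPM in WT and from 9.29 to 13.3 TPM in KO, and its small difference changed sign with the scaling, to -0.09. One of its protein-coding transcripts, Aqp7-201, stood at 1.19 TPM ± 0.266 in WT and 2.04 TPM ± 0.407 in KO (SD, n = 12 each), while the main one, Aqp7-202, stood at 6.64 TPM ± 0.533 and 6.19 TPM ± 1.01, and how reads were shared between them was estimated upstream.

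Aqp11 was the one member that passed the test as lower in KO. WT libraries ranged from 22.1 to 26.7 TPM (mean 24.02) and KO libraries from 18.8 to 23.8 TPM (mean 20.99), and 9 of 12 KO libraries lay below every WT library. It was lower at 6 of 6 times by group means, and the groups of a time did not overlap at ZT0, ZT8, ZT16 and ZT20, a split not counted over all genes. Its difference was -0.35 log2 units after median-of-ratios scaling. Aqp11 transcripts in the file were 1 of 5 annotated.

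**Figure D3:**
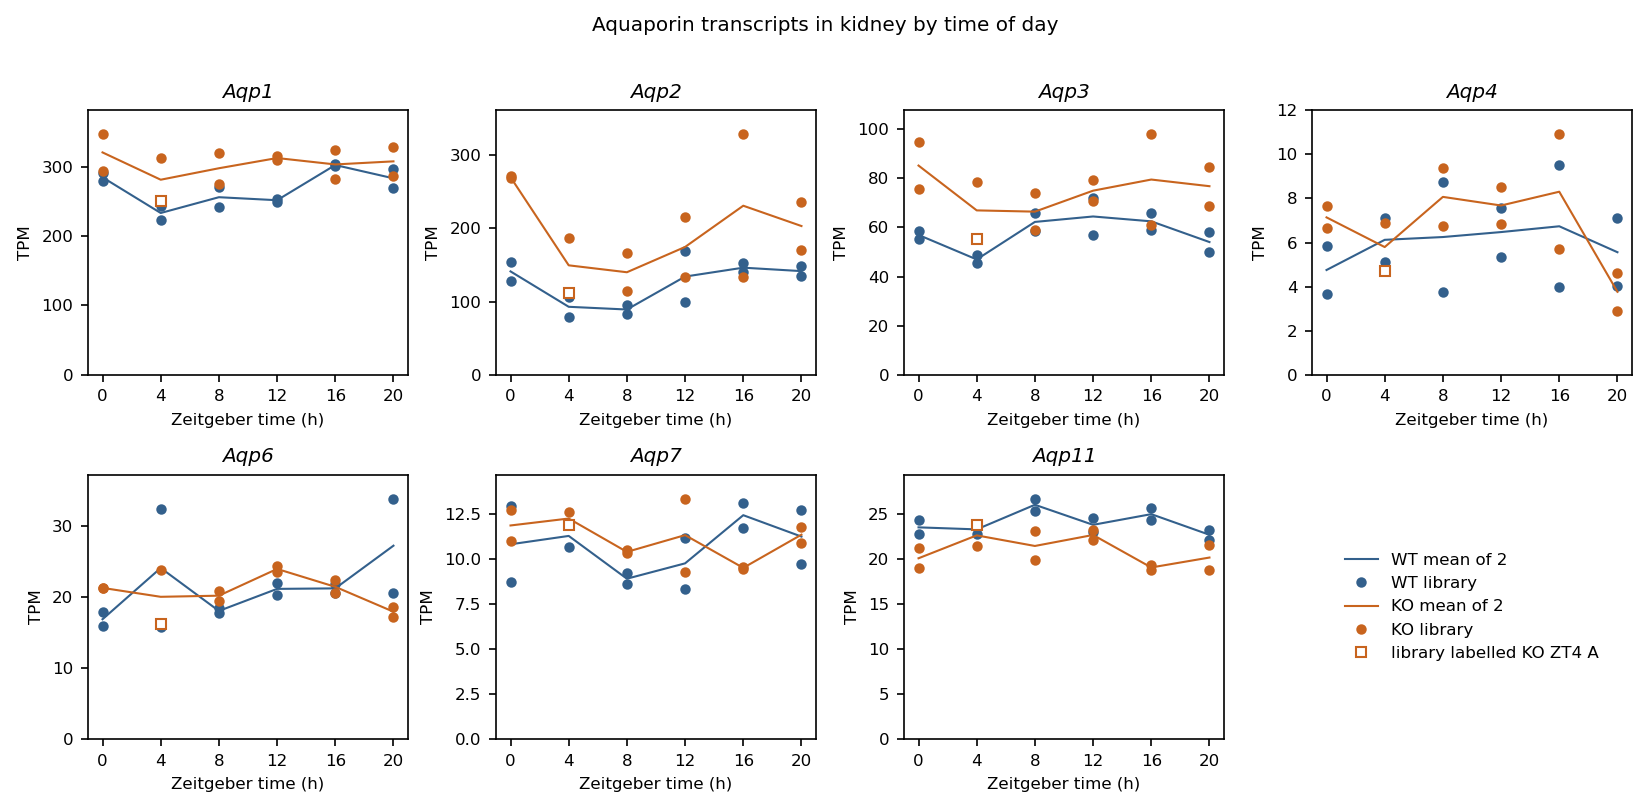
TPM of the 7 aquaporins (vertical axes, each from 0) against zeitgeber time in hours, with points for libraries, lines for means of 2, blue for WT, orange for KO and an open square for the library labelled KO ZT4 A. The KO mean of Aqp2 lies above the WT mean at all 6 times with 2 KO libraries as far apart as 133 and 329 TPM, and Aqp11 lies lower in KO.

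Compared time by time, the receptors carried most of the calls. Of 54 member and time combinations, 10 passed in limma with adjustment over all genes within a time: Avpr1a and Avpr2 at ZT0, ZT8, ZT12 and ZT16, Aqp11 at ZT16 and Aqp1 at ZT12. Of all genes, 13.4% passed at ZT0 (10.7% higher and 2.75% lower in KO), 0% at ZT4, 14.6% at ZT8 (11.1% and 3.44%), 38.2% at ZT12 (31.9% and 6.24%), 21.5% at ZT16 (17% and 4.47%) and 3.72% at ZT20 (2.39% and 1.33%). At ZT4, 0 of 12874 genes passed, 1637 had an unadjusted p under 0.05 in the same limma fit, and 4 of these were members. Without the library labelled KO ZT4 A, 16 combinations passed, with Avpr1a, Avpr2 and Aqp1 added at ZT4, Avpr1a and Avpr2 at ZT20 and Aqp11 at ZT8, and 11.6% of all genes passed at ZT4. Without both libraries that stood apart, 14 passed.

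The Avpr1a difference was largest at ZT12, where WT averaged 1.22 TPM ± 0.0212 and KO 11.4 TPM ± 0.910 (SD, n = 2 each), a ratio of 9.39. The log2 difference there was 3.13 (SE 0.235, adjusted p = 3.93e-06, limma) and 3.05 without the library labelled KO ZT12 A (adjusted p = 0.000134). It was 0.91 at ZT0 (adjusted p = 0.0235), 2.03 at ZT8 (adjusted p = 0.000332) and 1.70 at ZT16 (adjusted p = 0.000655). For Avpr2 the differences were 0.94 at ZT0, 1.38 at ZT8, 1.44 at ZT12 and 0.71 at ZT16, with adjusted p of 0.0117, 0.00216, 0.000255 and 0.0234 in limma. The ZT12 call of Aqp1 rested at the threshold, at an adjusted p of 0.0498 in limma, 0.0502 with a pseudocount of 1 and 0.673 with median-of-ratios scaling. With 1 library left out, the receptor calls at ZT8 and ZT12 and that of Avpr1a at ZT16 held in all 24 fits. The ZT0 calls were lost without WT ZT0 A, WT ZT0 B or KO ZT0 A for both receptors and without KO ZT0 B for Avpr1a, at adjusted p up to 0.135, and the ZT16 calls were lost without WT ZT16 A or KO ZT16 A for Avpr2 and Aqp11 and without WT ZT16 B for Avpr2, at up to 0.159 (limma).

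The next comparison asked whether the transcripts followed a 24-hour rhythm. The amplitude is given from the peak to the trough of the fitted curve, in log2 units. In WT it was 2.01 for Avpr1a (SE 0.227, adjusted p = 3.21e-05, limma), with a peak at ZT23.33 (SE 0.43 h), and 1.08 for Avpr2 (SE 0.198, adjusted p = 0.00301), with a peak at ZT21.06 (SE 0.7 h). These 2 of 9 genes passed, against 13.7% of all genes. The 7 aquaporins did not pass: the fitted amplitudes were 0.78 for Aqp2 (SE 0.301, adjusted p = 0.182, limma), 0.30 for Aqp1 (SE 0.0977, adjusted p = 0.092) and 0.12 to 0.35 for the other 5. Without the library labelled KO ZT4 A, which shares the spread estimate, Aqp1 passed as well, at an adjusted p of 0.0461 in limma, where 16.6% of all genes passed. In a fit of the WT libraries alone Aqp1 and Aqp2 passed, at 0.037 and 0.0394, and there 22.1% of all genes passed.

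In KO none of the 9 genes passed, 0 had an unadjusted p under 0.05 in the same limma fit, and 3.64% of all genes passed. Amplitudes in KO were 0.36 for Avpr1a (SE 0.227), 0.36 for Avpr2 (SE 0.198) and 0.77 for Aqp2 (SE 0.301). A rhythm that passes in one genotype and misses in the other does not show that they differ, so the difference was tested itself. This F test takes amplitude and peak time together, so its p is not one of amplitude alone. Avpr1a passed (adjusted p = 0.00255, limma), where 0.629% of all genes passed, and its fitted amplitude was smaller in KO (KO minus WT -1.65, SE 0.321). For Avpr2 the amplitude difference was -0.72 (SE 0.28), with an adjusted p of 0.351 in the F test (limma). For Aqp2 it was -0.01 (SE 0.425), with an adjusted p of 0.853. Without the library labelled KO ZT4 A, Avpr1a stood at -1.91 (adjusted p = 0.000275) and Avpr2 at -0.78 (adjusted p = 0.125), and without both libraries that stood apart Avpr1a stood at -1.94 (adjusted p = 0.000709, limma). Over the 24 fits that left out 1 library each, the adjusted p of Avpr1a ran from 0.000275 to 0.012.

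**Figure D4:**
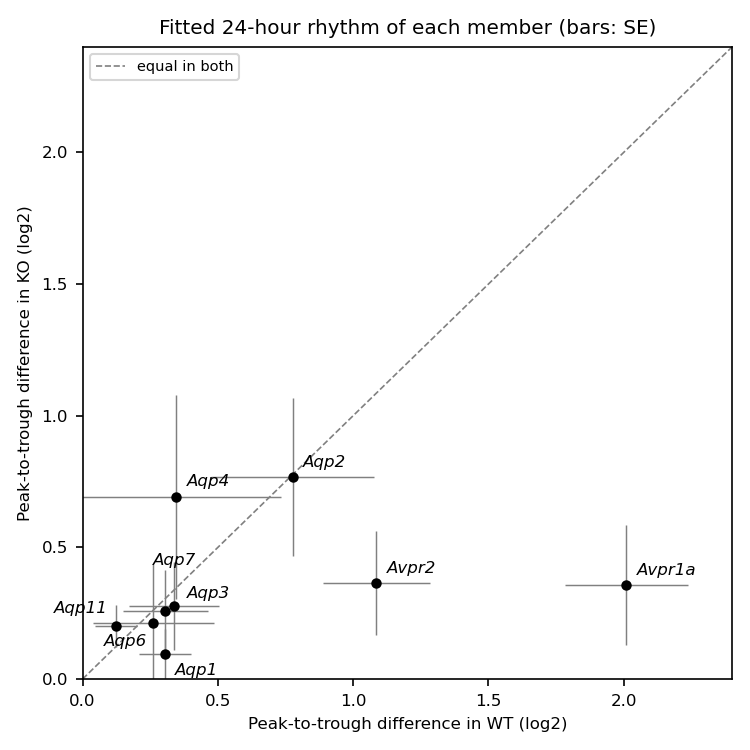
Fitted 24-hour peak-to-trough difference in log2 units in WT (horizontal axis) and KO (vertical axis) for the 9 transcripts, with bars of 1 SE; the dashed line marks equal values. Avpr1a lies farthest below the line, at 2.01 in WT and 0.36 in KO, and Aqp2 lies on it, at 0.78 and 0.77.

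Levels of markers of the cells that make these proteins differed between genotypes too, in counts to be read against the 60.9% called among all genes. Of 9 principal cell markers tested (among them the sodium channel subunits Scnn1b and Scnn1g and the cortisol-inactivating enzyme Hsd11b2), 8 were higher and 1, Tmem45b, lower in KO, and the sum of the 10 listed ranged from 196 to 268 TPM in WT and from 241 to 432 TPM in KO. All 10 intercalated cell markers were higher, with sums of 130 to 180 TPM in WT and 175 to 298 TPM in KO. Of 12 proximal tubule markers, 2 were higher (Slc5a2 and Slc5a12) and 5 lower (among them the organic anion transporter Slc22a6, and Kap and Slc7a13). Slc34a1, Lrp2 and Cubn were among those that did not pass. The sums were 34453 to 45282 TPM in WT and 12588 to 40011 TPM in KO. Kap, like Slc7a13 one of the male-high genes, made up 88.5% of that sum. Without Kap, but with Slc7a13, the sums were 3539 to 5358 and 2109 to 4263 TPM. With median-of-ratios scaling, which called 44.3% of all genes, the counts were 7 higher and 1 lower, 10 higher, and 1 higher and 7 lower for the 3 lists.

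Other lists were counted in the same way against the 60.9% of all genes called. The endothelium (62.5%) and smooth muscle (60%) lists lay near that share, and the immune (40%) and adipocyte (0%) lists below it. Markers of the thin limb were higher in 6 of 7 tested, of the thick limb and distal convoluted tubule higher in 9 and lower in 1 (Umod) of 10, of the endothelium higher in 5 of 8, of podocytes in 6 of 6, of smooth muscle in 3 of 5 and of the urothelium in 4 of 4. Erythroid markers were higher in 4 and lower in 1 of 6, and Slc4a1, among the 4, is also on the intercalated cell list. Immune markers were lower in 2 of 5. Adipocyte markers passed in 0 of 5 (0 with an unadjusted p under 0.05, limma), and no adrenal marker reached a mean of 1 TPM. With median-of-ratios scaling 44.3% of all genes were called. There the thin limb had 4 higher, the thick limb and distal tubule 7 higher and 1 lower, the endothelium 3 higher and podocytes 5. Smooth muscle had 2 higher and 1 lower, the urothelium 3 higher, the erythroid list 1 higher and 1 lower and the immune list 3 lower. The endothelium (37.5%) and erythroid (33.3%) lists were among those below the share of all genes. Summed over each list, markers of the nephron and collecting duct were present in every library. The lowest sums were 125 TPM for the thin limb, 1632 for the thick limb and distal convoluted tubule and 73.2 for podocytes, all in WT. The ratios that follow relate members to marker levels, which are no count of cells. The part of the marker shifts between genotypes in the results of the 9 genes was not tested.

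Each collecting duct member was set against the summed markers of its cell within the same library, a ratio that the scaling of a library barely touches. The log2 ratio was compared by an exact two-sided permutation test of genotype labels within times (46656 arrangements), adjusted over 7 ratios, and these pairs were chosen after the data were seen. Aqp2 relative to principal cell markers did not differ between genotypes by more than the spread: the mean log2 ratio was -0.93 ± 0.305 in WT and -0.96 ± 0.458 in KO (SD, n = 12 each), a difference of -0.03 (exact permutation, adjusted p = 0.858). Aqp3 lay lower relative to the same markers, by a log2 difference of -0.27 (exact permutation, adjusted p = 0.0367), and Aqp4 by -0.46 (exact permutation, adjusted p = 0.0367). Both calls were lost without the libraries labelled KO ZT4 A and KO ZT12 A, at an adjusted exact permutation p of 0.0519 each, and over 27 alternatives their adjusted p ran from 0.0172 to 0.0795 and from 0.0148 to 0.107.

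The receptors lay higher relative to these marker sums. Of the principal cell sum, 25.7% was Hsd11b2, itself 0.41 log2 units higher in KO. Single principal cell markers ran from -0.21 (Tmem45b) to 1.34 (Npnt), a range that holds the 0.95 of Avpr2. Avpr2 over the principal cell sum was 0.31 log2 units higher in KO (exact permutation, adjusted p = 0.0009), at -4.57 ± 0.294 in WT and -4.25 ± 0.219 in KO (SD, n = 12 each). Avpr1a was 0.90 higher relative to principal cell markers and 0.97 relative to intercalated cell markers (exact permutation, adjusted p = 0.0003 for each), higher at 6 of 6 times for both. Relative to 6 genes of vessel wall smooth muscle and renin cells (72.9% of their sum was Ren1), Avpr1a stood at -5.90 ± 0.685 in WT and -4.74 ± 0.260 in KO (SD, n = 12 each). The ranges met, the WT values ending and the KO values beginning at -5.14, and that ratio was not tested. Aqp6 over the intercalated cell sum was lower in KO, with a log2 difference of -0.58 (exact permutation, adjusted p = 0.0006). This ratio was lower at 6 of 6 times, while Aqp6 itself did not pass the genotype test. The Avpr2, Avpr1a and Aqp6 calls held without both libraries that stood apart, at log2 differences of 0.32, 0.93, 1.02 and -0.56.

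Across the 24 libraries the Pearson correlation of log2 values with the principal cell sum was 0.71 for Aqp2, 0.92 for Avpr2 and 0.90 for Avpr1a, as a description; libraries of both genotypes are pooled, and within the 12 WT libraries it was 0.59, 0.87 and 0.72. The principal cell sum moved with time in WT as Avpr2 did, from 260 and 264 TPM at ZT0 to 201 and 213 TPM at ZT8. Of its 9 tested markers 4 passed the WT rhythm test, against 13.7% of all genes. The part of that movement in the rhythm of Avpr2 was not tested.

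**Figure D5:**
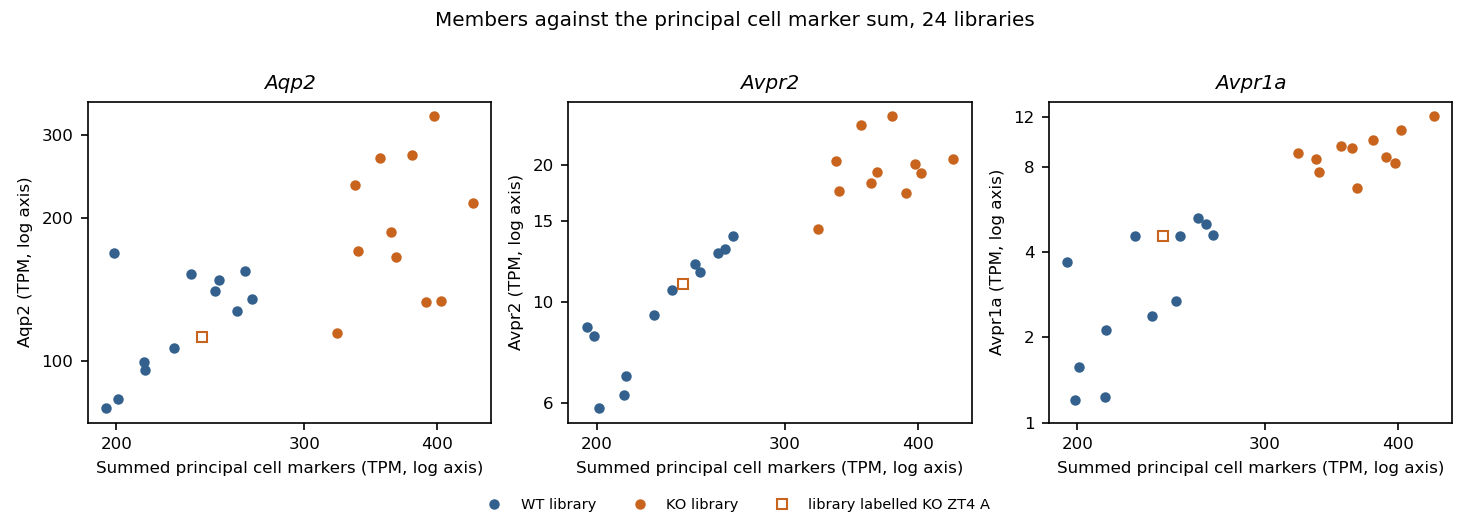
TPM of Aqp2, Avpr2 and Avpr1a (vertical axes, log scale) against the summed TPM of 10 principal cell markers (horizontal axes, log scale) in the 24 libraries, WT in blue, KO in orange and the library labelled KO ZT4 A as an open square. The KO libraries other than that one lie to the right, at 322 TPM or more, and the open square lies among the WT libraries.

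The genes most like each member over the 24 libraries, by Pearson correlation of log2(TPM + 0.1), are given as a description. For Avpr1a they were Jpt2 (0.968) and Tspan14 (0.967), for Avpr2 Raly (0.966) and Nt5m (0.953), and for Aqp2 1810055G02Rik (0.924) and Nccrp1 (0.91). Aqp3 was most like Srsf2 (0.871) and Emx1 (0.865), Aqp1 most like Prmt3 (0.859) and Ppp1r1a (0.858), and Aqp11 most like Nxpe3 (0.835) and Glrx (0.819). Correlations were lower for Aqp4 (Hacd4, 0.814, and Adora1, 0.813), Aqp6 (Rnase4, 0.703, and Mt3, 0.678) and Aqp7 (Cyb5rl, 0.617, and Txnl4a, 0.598). Among the 9, the receptors were most alike, at 0.907 over all 24 libraries, 0.783 within WT and 0.698 within KO. Aqp2 and Aqp3 correlated at 0.836 over all, 0.417 within WT and 0.921 within KO.

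Of 5 further aquaporins listed, only Aqp8 reached a mean of 1 TPM. Aqp8 stood at 0.0306 to 1.54 TPM in WT and 1.59 to 18.9 TPM in KO. The groups did not overlap, a split not counted over all genes. WT libraries averaged 0.709 TPM ± 0.557 and KO libraries 10.3 TPM ± 5.09 (SD, n = 12 each). Aqp8 reached the mean of 1 TPM only through the KO libraries, so its difference between genotypes is a description with no test. Its WT values went from 1.46 and 1.54 TPM at ZT4 down to 0.0306 and 0.0685 TPM at ZT16. The latter lie below the 0.1 TPM added before the log, and these values too are a description with no test. Its upstream window also held CACGTG. Mip, Aqp5, Aqp9 and Aqp12 averaged 0.0236, 0.704, 0.0957 and 0.00154 TPM, and of the other vasopressin-family receptors Avpr1b averaged 0.00218 and Oxtr 0.0905 TPM.

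Of 6 tested receptors that act on collecting duct or distal water and salt transport, 5 were higher in KO and 0 lower (4 and 0 with median-of-ratios scaling), against 50.9% higher and 10% lower of all genes, with a median of 0.45 log2 units. Ptger1, a prostaglandin E2 receptor, rose by 0.50 (SE 0.0729, adjusted p = 1.44e-05, limma), from 8.62 TPM ± 1.05 to 12.2 TPM ± 1.85 (SD, n = 12 each). P2ry2, a nucleotide receptor, rose by 0.66 (adjusted p = 1.47e-05) and Casr, the calcium-sensing receptor, by 0.47 (adjusted p = 0.000354). Ptger3, the prostaglandin receptor that opposes cyclic AMP formation and also marks the thick limb, was rhythmic in WT (peak-to-trough 0.88, adjusted p = 0.0198, limma) with its peak at ZT20.93, and that call was lost without WT ZT8 A, WT ZT8 B or WT ZT20 B, at adjusted p up to 0.0691 (limma).

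In the cyclic AMP pathway 12 of 21 genes were higher and 0 lower in KO, near the 60.9% called among all genes, with a median of 0.13 against 0.15 over all genes, and 4 were higher and 3 lower after median-of-ratios scaling. Adcy6, the adenylyl cyclase that acts downstream of the V2 receptor in principal cells, rose by 0.57 (SE 0.0696, adjusted p = 2.28e-06, limma), from 18.6 TPM ± 1.37 to 27.9 TPM ± 4.79 (SD, n = 12 each). Prkar1a, a regulatory subunit of protein kinase A, rose by 0.28 (adjusted p = 2.29e-06), and Pde4b, a phosphodiesterase that degrades cyclic AMP, by 0.56 (adjusted p = 2.1e-05). After median-of-ratios scaling Prkar1a stood at 0.14, still past the threshold. In WT, 3 of 21 were rhythmic, near the 13.7% of all genes. The count was 6 with median-of-ratios scaling and 5 without the library labelled KO ZT4 A. It was 7 in a fit of WT alone, where the share of all genes was higher too, as given above. It was 1 without WT ZT0 A, WT ZT8 A or WT ZT16 A or with time as a 6-level factor. Among the 3 were Rapgef3, the cyclic AMP sensor EPAC1, with a peak at ZT16.9 (adjusted p = 0.0243, limma) and the transcription factor gene Creb1 with a peak at ZT20.74 (adjusted p = 0.0254). Both calls were lost when single WT libraries were left out, Rapgef3 without either ZT4 or either ZT16 library (adjusted p up to 0.0982, limma) and Creb1 without ZT0 A, ZT8 A, either ZT12 library or ZT20 A (up to 0.0736).

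Of 21 genes for the trafficking of AQP2 vesicles, 13 were higher and 0 lower as deposited, near the 60.9% called among all genes, and 3 were higher and 3 lower after median-of-ratios scaling. Myo5b, a myosin motor of recycling vesicles, rose by 0.44 (SE 0.052, adjusted p = 1.64e-06, limma), and Vamp2, a vesicle fusion protein, by 0.31 (adjusted p = 2.64e-05). After median-of-ratios scaling Myo5b stood at 0.29 and Vamp2 at 0.16, both still past the threshold. Rab11a, a GTPase of recycling endosomes, rose by 0.18 (adjusted p = 9.95e-05) as deposited and stood at 0.03 (adjusted p = 0.333) after the other scaling. In WT 6 of 21 were rhythmic, against 13.7% of all genes, 3 without WT ZT0 A, WT ZT0 B or WT ZT12 B, and 2 with time as a 6-level factor. Among the 6 were Stx3, a syntaxin of apical membranes, with a peak at ZT6.23 (adjusted p = 0.00183, limma), and Sipa1l1, a Rap GTPase regulator linked to AQP2 endocytosis, with a peak at ZT23.49 (adjusted p = 0.00202).

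Of 12 genes listed for the transcriptional control of Aqp2 and of collecting duct cells, 10 were higher and 1 lower in KO (60.9% of all genes called), with a median of 0.54 log2 units, and 9 and 2 after median-of-ratios scaling. The list holds the histone methyltransferase gene Dot1l and the intercalated cell factor Foxi1, which is also on the intercalated cell list, and both were among the 10. Ehf, an epithelial ETS factor, rose by 0.81 (SE 0.099, adjusted p = 2.11e-06, limma), Gata2 by 0.57 (adjusted p = 6.53e-06) and Tfap2b by 0.50 (adjusted p = 2.86e-05). In WT 0 of the 12 passed the rhythm test in limma, against 13.7% of all genes, and 2 had an unadjusted p under 0.05. In a fit of WT alone 3 passed, where the share of all genes was higher too, as given above. Without both libraries that stood apart these genes gave 10 higher and 1 lower, the trafficking genes 13 and 0, the cyclic AMP genes 12 and 1, and the receptors 4 and 0.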

How the data were processed

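Polyadenylated kidney RNA was measured in 24 libraries, and 20 chromatin contact libraries of the same series were not used here. The authors deposited TPM per transcript, and the submitters' processing notes list kallisto 0.42.4 and the build GRCm38/mm10; the index and annotation release are not given in the sources used here. Each deposited column sums to 999999.2 to 1000000.6, so TPM holds no depth. Of 88198 transcripts, 86119 matched GENCODE M21 by identifier without version and were summed per gene; the 2079 others held 1.35% to 2.24% of TPM.

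The 12874 genes averaging 1 TPM or more were fitted as log2(TPM + 0.1) with limma 3.58.1 in R 4.3.3 (eBayes with trend and robust options), with Benjamini-Hochberg adjustment over all 12874 genes and a threshold of 0.05. The genotype model held time as a 6-level factor; rhythm was a 24-hour cosine per genotype. Tests were two-sided or F tests. The fits were tested on simulated data.

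The members and gene lists were chosen with earlier results of these data known. Named were the 9 members, per member the 2 genes most correlated with it, and per pathway list up to 3 genes with the smallest p for genotype and 2 for WT rhythm among those passing. The values of 1 listed gene are not reported here. Aqp8 came from the list of other aquaporins. The marker lists are those the report names; the ratios to markers were compared by exact permutation. Alternatives covered the pseudocount, the filter, the scaling, the replicate letter, the rhythm model and leaving out each library.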

Additional observations from a re-analysis of the deposited data

Results flagged for a closer look

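The rhythm of Avpr1a, the V1a vasopressin receptor gene, differed between genotypes by a test of the difference itself. From peak to trough the fitted curve spanned 2.01 in WT and 0.36 in KO on the log2 scale (SE 0.227 for each), and KO minus WT was -1.65 (SE 0.321). The adjusted p of 0.00255 (limma F test, 12 libraries per genotype) takes amplitude and peak time together. Of all genes, 0.629% passed that test. Leaving out each of the 24 libraries in turn gave amplitude differences from -1.91 to -1.53. The male-high and female-high kidney genes and the principal cell markers differed between genotypes as well, and their part in this result was not tested.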

How the results depend on the processing

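All 5 counts of members kept within 1.5 times of their values, except as given here. Members rhythmic in WT numbered 2, and 4 when each genotype had its own fit, with or without the library labelled KO ZT4 A (4 in both), a fit in which the share of all genes rose from 13.7% to 22.1%. Leaving out 1 library at a time gave 2 to 3 of them, 6 members for genotype in each of 24 fits, 0 for KO rhythm, 1 for the difference in rhythm, and 7 to 16 member and time pairs against 10, the 7 without WT ZT0 A and the 16 without the library labelled KO ZT4 A. In such fits a lone library is assumed to vary like the others. Signs turned only in values that passed no test, and the cause was not tested. The genotype difference of Aqp7 was -0.0897 with median-of-ratios scaling and -0.00609 when scaled without mitochondrial genes, and that of Aqp6 was 0.02 without both libraries that stood apart and -0.0604 to 0.0628 with single libraries left out. The difference in rhythm of Aqp2 was 0.0666 without mitochondrial genes, 0.255 with time as a 6-level factor, 0.0984 without both libraries and -0.145 to 0.205 with single libraries left out; the latter ranges were -0.144 to 0.0536 for Aqp3, -0.363 to 0.0742 for Aqp6 and -0.169 to 0.106 for Aqp7. For Aqp11 it was -0.034 without mitochondrial genes. The log2 ratio of Aqp2 to principal cell markers ran from -0.134 to 0.0783 with single libraries left out. The letters A and B did not visibly pair WT with KO libraries of a time: deviations from group means of same-letter libraries correlated at -0.089 to 0.15. Over all pairs of groups the correlations ran from -0.323 to 0.338. The comparison within times cannot see a letter effect shared by the times of a genotype. With the letter as a replicate block, 6 members passed for genotype (Avpr1a 1.54, adjusted p = 1.92e-05, limma) and 9 of the member and time pairs, Aqp1 at ZT12 being lost at 0.0514. Avpr2 at ZT16 was lost with median-of-ratios scaling, at an adjusted p of 0.0542 in limma. TPM carries no depth, so what counting error limits in low transcripts such as Aqp4 and Avpr1a is unknown.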

Other observations

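The low transcripts of the family gave further values. Aqp5, a channel of secretory epithelia whose gene lies between Aqp2 and Aqp6, averaged 0.704 TPM and ranged from 0.0847 to 6.66 TPM over the 24 libraries, with no library at 0. Aqp12 was listed at 0 in 22 libraries and Avpr1b, the pituitary vasopressin receptor gene, in 16. Oxtr, the oxytocin receptor gene, ranged from 0.0455 to 0.119 TPM, and Ptger2, a prostaglandin receptor gene, from 0.036 to 0.128 TPM.

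Some members rested on several transcripts. The main Avpr2 transcript in the file, Avpr2-201, made up 54.5% to 77.8% of the gene per library. For Aqp7, the coding transcript Aqp7-202 made up 44.1% to 81.5% and the processed transcript Aqp7-204, which codes for no protein in the annotation, 1.57% to 45.7%. Mitochondrial transcripts took 41.1% ± 1.33 of TPM in WT and 38.3% ± 2 in KO (SD, n = 12 each).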
